A study of Mus musculus with 16 samples.

Results

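Potassium channel genes of the mouse dentate gyrus were followed across 4 groups of male C57BL/6 mice aged 1 year. The members were all gene names made of Kcn, one or more letters and a number, which gave 97 of the 24421 gene names in the expression tables, each with 1 entry in every library. Mice were wild type for p16Ink4a (p16 WT, p16Ink4a +/+) or lacked it (p16 KO, p16Ink4a -/-), and were either sedentary (CTL) or had a running wheel in the cage for 12 days (RUN). The sedentary groups are called p16 WT CTL and p16 KO CTL, the running ones p16 WT RUN and p16 KO RUN. Each had 4 mRNA libraries, and each library pooled the dentate gyri of 2 mice, so that 8 mice stood behind each group. The deletion was present in all cells, the knockout line kept p19Arf of the same locus, and it had been backcrossed to C57BL/6 from another strain. Expression was measured in TPM, the abundance of a gene's transcripts relative to all transcripts of the library and corrected for gene length, so that levels could be set side by side between genes.

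Potassium channels let potassium ions leave the cell and so bring a neuron back to rest after an action potential. Voltage-gated channels (Kv) open on depolarisation, calcium- and sodium-activated channels follow ion entry during firing, inward rectifiers (Kir) and two-pore channels hold the resting potential, and small auxiliary subunits set the traffic and speed of the pore proteins. Granule neurons of the dentate gyrus are known for a very negative resting potential and sparse firing, and astrocytes take up the potassium that neurons release through Kir channels. Most members are pore-forming subunits, and the remainder are auxiliary subunits (Kcnab, Kcne, Kcnip, Kcnmb) and 4 noncoding RNAs named after a neighbouring channel gene.

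The libraries were checked before the members were compared. All 9 of the granule neuron markers used, among them Prox1, a transcription factor of these neurons, had a mean of at least 10 TPM, and markers of pyramidal neurons, interneurons, astrocytes and oligodendrocytes were also present, as in dissected tissue. Fewer cells of a type and less RNA per cell cannot be told apart in such bulk libraries. Prox1 lay at 58.1 to 85.3 TPM in p16 WT CTL replicate 2 and p16 KO CTL replicates 7 and 8 and at 116 to 187 TPM in the other 13 libraries, and the summed oligodendrocyte markers were highest in the same 3 libraries (2106 to 2527 against 1028 to 1860.4 TPM). The sum of 8 RNAs that stay in the nucleus, such as Malat1, was 486 to 984 TPM in p16 WT CTL replicate 2 and p16 KO CTL replicates 6 and 7 and 1838 to 2541 TPM in the others. All of these libraries were sedentary, so the fits were repeated without each set of 3, and calls that this ended are named for the members of smallest p. Median coverage relative to the typical library, a measure of depth, was highest in p16 WT CTL replicate 2 (1.95) and p16 KO CTL replicate 7 (1.68). It was 0.9 to 1.07 in the other sedentary libraries and 0.621 to 0.893 in the running ones. The part of depth in the results was not tested. Cdkn2a, the locus of p16Ink4a, was listed at 0 in 8 of the 16 libraries and reached at most 0.586 TPM in p16 WT and 0.413 TPM in p16 KO; as its entry also holds p19Arf, it checked no label.

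The summed level of the 97 members was 4009 ± 200.1 TPM in sedentary p16 WT mice, 3809.7 ± 130.2 in sedentary p16 KO mice, 4179 ± 107 in the p16 WT runners and 4132 ± 83.0 in the p16 KO runners (SD, n = 4 libraries). By mean level, 14 members had at least 100 TPM, 36 had 10 to 100, 24 had 1 to 10, 12 had 0.1 to 1, and 11 had less than 0.1 TPM, of which Kcnk16 and Kcnj1 were listed at 0 in all libraries. Tests were run on the 86 members whose mean reached 0.1 TPM. Voltage-gated channels and their auxiliary subunits made up most of the sum, and the level of 1 gene, Kcnab2, was more than that of any other member in every library.

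The Kv1 channels, low-threshold channels of axons, and their beta subunits held 24.6% of the summed level. Kcnab2, a beta subunit related to aldo-keto reductases that carries Kv1 channels to the membrane, had a mean of 609 TPM. Kcnab1 (the beta subunit that gives Kv1 channels fast inactivation) stood at 116 TPM, close to Kcna1, a pore subunit, at 113 TPM. Kcna2 followed at 59.0, Kcna6 at 33.3, Kcna4 at 27.4 and Kcnab3 at 17.7 TPM, whereas Kcna7 and Kcna10 were below 0.1 TPM.

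The Kv4 channels and their calcium-binding KChIP subunits, which carry the A-type current of dendrites, held 15.2%. The subunits Kcnip2 at 238 and Kcnip3 at 125 TPM stood above the pores Kcnd2 at 83.3 and Kcnd3 at 74.2 TPM, while Kcnip4 at 75.8 TPM lay between these pores and Kcnip1 at 10.1 TPM below both. The Kv3 channels, known for the fast repolarisation of rapidly firing neurons, held 11.9%, with Kcnc1 at 118 and Kcnc4 at 104 TPM. Kv7 channels, which carry the M-current that muscarinic receptors close, held 7.76% with the KCNE subunits, with Kcnq3 at 62.5 and Kcnq5 at 47.7 TPM.

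Kv2 channels and the silent subunits that open no pore alone but join Kv2 held 7.49%. The silent subunit Kcng1, at 64.2 TPM, had the highest level of the silent subunits, and Kcnf1 (36.7), Kcng2 (35.1) and Kcng3 (5.62 TPM) also belong to this type. The Kv10 to Kv12 channels held 3.53%, with Kcnh3, a channel of forebrain neurons, highest at 74.9 TPM and Kcnh6, a channel of the ERG type, at 0.712 TPM.

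Inward rectifiers held 15.1% of the summed level. Kcnj3 (121 TPM), Kcnj9 (91.3 TPM) and Kcnj6 (88.6 TPM) encode GIRK subunits, which open when G proteins are released by inhibitory receptors, and Kcnj5, the further GIRK subunit known from the heart, stood at 0.301 TPM. Kcnj10, the main inward rectifier of astrocytes, stood at 109 TPM and its partner Kcnj16 at 25.0 TPM. Two-pore channels held 6.53%, and the highest of them was Kcnk1 (149 TPM), while Kcnk2, a channel gated by stretch and lipids, stood at 33.7 TPM. The calcium- and sodium-activated channels held 7.35%, led by Kcnmb4, the neuronal beta subunit of the BK channel, at 127 TPM, above the BK pore Kcnma1 at 70.6 TPM.

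**Figure D1:**
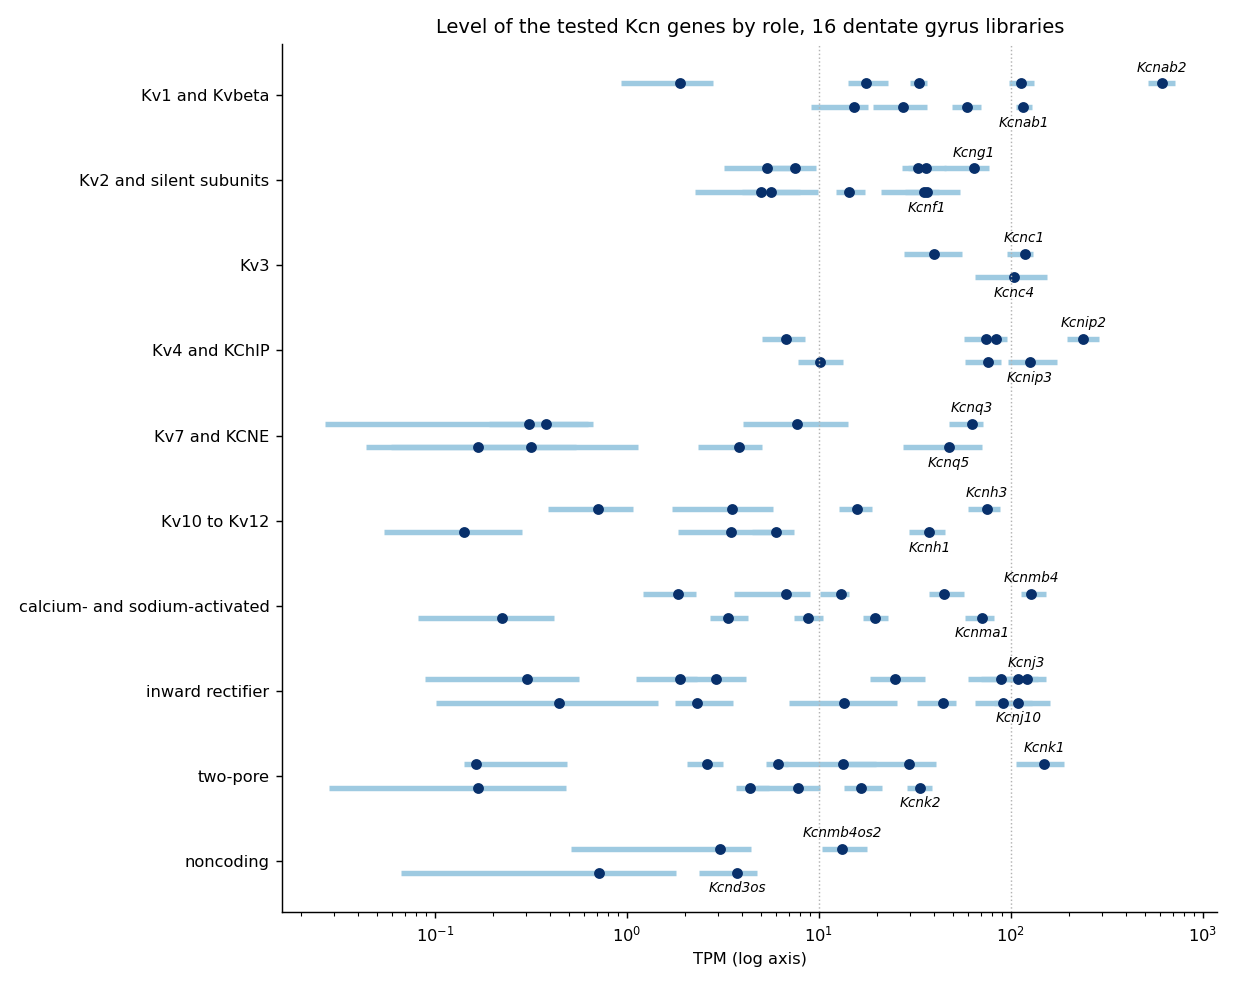
Mean TPM over 16 libraries (dark points, log axis) and range over the libraries with a value above 0 (pale bars) of the tested members reported here, in rows by role, with 2 of each role named and dotted lines at 10 and 100 TPM. Kcnab2 stands alone at 609 TPM.

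The 4 noncoding members lay low, with a summed share of 0.514%. Kcnmb4os2 (13.2 TPM) runs opposite to Kcnmb4 and shares 361 bases with its entry, and Kcnd3os and Kcnmb4os1 also overlap a channel gene on the other strand. Kcnq1ot1, an RNA of the nucleus that silences neighbouring genes on the paternal chromosome, lies inside the entry of Kcnq1 on the opposite strand. The library kit kept the strand, but whether the abundance step used it is not given in the sources used here, so reads of these pairs may have been shared.

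The effect of running was first asked over both genotypes, in a fit of all 16 libraries with genotype as a covariate. At the unadjusted p under 0.05 used in the study, 14 of the 86 tested members (16.3%) differed between RUN and CTL, 11 higher and 3 lower, where 17.5% of all 17317 tested genes did, 9.61% higher and 7.88% lower. In this fit the share of members called was thus no larger than that of all genes. It was larger with the nuclear RNA score as a covariate (11.6% against 9.18%) and with TPM as deposited (23.3% against 17.5%). With quantile normalization it was smaller (14% against 17.2%). By log2 fold change, 55 of the 86 members (64.0%) lay above 0, against 53.3% of all tested genes, and the median was 0.08 for the members and 0.01 for all genes. These medians were 0.035 and -0.004 without the 3 libraries of lowest nuclear RNA, and 0.039 and -0.003 with the nuclear RNA score as a covariate. With TPM as deposited the median of the members was 0.117. After Benjamini-Hochberg adjustment over all tested genes in limma, 2 members stayed below 0.05, Kcnj6 and Kcnip3, where 0.797% of all genes did. No member did without p16 KO CTL replicate 6 or p16 WT RUN replicate 10, where 58 and 55 of all genes did. None did without p16 KO RUN replicate 14 or 16 either, where 37 and 72 genes did. Without p16 WT RUN replicate 11, 3 members and 187 of all genes did, against 138 genes with all libraries. With TPM as deposited, which moved the median of all genes to 0.05, 18 members were higher and 2 lower (12.7% higher and 4.81% lower of all genes), and with quantile normalization 10 were higher and 2 lower (7.94% higher and 9.23% lower).

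Kcnj6 (chr16:94748683-94997696, mm10, minus strand) and Kcnip3 (chr2:127456498-127522094, minus strand) are shown with the 250 bases before their start, since both passed the adjusted threshold. Kcnj2 (chr11:111066164-111076825, plus strand), an inward rectifier that holds the resting potential, is added because it had the highest log2 fold change among the 11 members that were higher. The bases come from RefSeq on GRCm38.p6, at chr16:94997697-94997946 (minus strand) for Kcnj6, chr2:127522095-127522344 (minus strand) for Kcnip3 and chr11:111065914-111066163 (plus strand) for Kcnj2, written 5′ to 3′, and capitals mark the GC box letters GGGCGG.
Kcnj6: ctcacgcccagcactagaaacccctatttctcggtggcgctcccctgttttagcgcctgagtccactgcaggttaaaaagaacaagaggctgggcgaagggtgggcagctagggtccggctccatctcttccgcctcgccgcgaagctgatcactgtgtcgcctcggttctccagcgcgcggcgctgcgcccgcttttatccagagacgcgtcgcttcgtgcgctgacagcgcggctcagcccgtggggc
Kcnip3: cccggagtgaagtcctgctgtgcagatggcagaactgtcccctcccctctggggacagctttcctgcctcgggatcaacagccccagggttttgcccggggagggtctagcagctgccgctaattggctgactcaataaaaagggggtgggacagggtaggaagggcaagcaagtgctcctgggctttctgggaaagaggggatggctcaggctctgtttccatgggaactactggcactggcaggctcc
Kcnj2: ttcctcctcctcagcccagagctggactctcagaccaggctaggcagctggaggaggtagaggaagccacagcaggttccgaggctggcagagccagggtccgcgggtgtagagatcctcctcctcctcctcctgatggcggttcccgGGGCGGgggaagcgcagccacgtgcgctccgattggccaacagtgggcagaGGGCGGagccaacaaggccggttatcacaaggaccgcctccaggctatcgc
Kcnj2 held 2 GC boxes, and neither Kcnj6 nor Kcnip3 held these letters in this window. On both strands, GGGCGG occurred in 42 of the 71 members with a promoter in the RefSeq table (59.2%) and in 35.4% of 27025 gene names. The letters TGACGTCA of the full cyclic AMP response element occurred in 0 of the 71 members and in 1.77% of all names. The shorter TGACG, which is part of it, occurred in 15 members (21.1%) and in 19.8% of all names, and none of the 3 windows shown held it.

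Kcnj6 encodes GIRK2, the GIRK subunit that anchors neuronal GIRK channels in dendrites. Its level was 82.2, 62.6, 94.5 and 88.6 TPM in p16 WT CTL and 84.7, 67.5, 59.8 and 63.9 TPM in p16 KO CTL. In the runners it was 98.4, 111, 97.3 and 97.9 TPM in p16 WT RUN and 97.3, 112, 91.6 and 108 TPM in p16 KO RUN. No library of a running group lay below the highest of the sedentary group of its genotype, and 1 runner, p16 KO RUN replicate 15, lay below the highest sedentary library, p16 WT CTL replicate 3. The log2 fold change over both genotypes was 0.41 (SE 0.08, adjusted p 0.0227 in limma), and the exact permutation test within genotypes gave 0.000408, the smallest p it allows. The 3 sedentary libraries of lowest Prox1 held the 3 lowest values, at 59.8 to 63.9 TPM, and without them the log2 fold change was 0.28.

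Kcnip3 encodes a KChIP subunit of Kv4 channels that is also known, as DREAM, as a calcium-regulated repressor of transcription. It stood at 106, 101, 119 and 108 TPM in p16 WT CTL and 98.5, 109, 104 and 97.1 TPM in p16 KO CTL, a narrow range. In p16 WT RUN it stood at 109, 163, 127 and 142 TPM, so that 1 library stayed within the sedentary range, and in p16 KO RUN at 127, 172, 144 and 175 TPM, all above it. The log2 fold change over both genotypes was 0.41 (SE 0.09, adjusted p 0.0465 in limma). It was 0.39 without the 3 libraries of lowest Prox1 and 0.43 without the 3 of lowest nuclear RNA. With 13 libraries in either case no gene of all those tested passed the adjusted threshold in limma, and 13 and 10 members, respectively, had an unadjusted p under 0.05, or 15.1% and 11.6% of the members against 10.7% and 8.73% of all genes.

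Among the other members that rose over both genotypes, Kcnj2 moved furthest. It was 11.7, 7.01, 15.4 and 14.8 TPM in sedentary p16 WT and 10.7, 8.22, 8.88 and 7.22 TPM in sedentary p16 KO mice, and 12.3, 17.2, 15.4 and 19.7 TPM in the p16 WT and 15.3, 12.3, 13.9 and 25.4 TPM in the p16 KO runners. The log2 fold change was 0.62 (SE 0.17, unadjusted p 0.00211), and the wild-type groups overlapped while the knockout groups did not. Kcnk1 (log2 fold change 0.27, SE 0.08), Kcna1 (0.16, SE 0.04), Kcng1 (0.24, SE 0.08) and Kcnj3 (0.14, SE 0.05) rose by less. Without the 3 libraries of lowest Prox1, neither Kcng1 (0.14) nor Kcnj3 (0.09) was called, and without the 3 of lowest nuclear RNA Kcnj3 (0.11) was not. Kcna3 (0.26, SE 0.11) and Kcnd3 (0.13, SE 0.06) were called in 10 of the 16 fits that each left out 1 library.

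Kcna1 changed little. Its level was 115, 97.3, 115 and 108 TPM in sedentary p16 WT mice, 108, 97.5, 97.8 and 105 in sedentary p16 KO mice, 123, 132, 109.9 and 123 in the p16 WT runners and 120.4, 121, 118 and 119 in the p16 KO runners. The 4 p16 KO RUN libraries thus lay close to each other and above all sedentary libraries. The wild-type groups overlapped, with p16 WT RUN replicate 11 at 109.9 TPM. Kcnk1, a weakly conducting two-pore channel found in neurons and astrocytes, was 119, 119.8, 159.7 and 137 TPM in sedentary p16 WT and 137, 140.3, 149 and 106 in sedentary p16 KO mice, against 156, 170.2, 159 and 168 in the p16 WT and 141, 171, 159.6 and 189 in the p16 KO runners, and the groups overlapped in both genotypes.

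Of the 3 members that fell over both genotypes, Kcnh6 had the largest log2 fold change at -0.64 (SE 0.16, unadjusted p 0.00114). This was at a low level, with 0.94, 1.03, 0.78 and 1.07 TPM in sedentary p16 WT mice, 0.83, 0.73, 0.62 and 1.03 in sedentary p16 KO mice, 0.39, 0.39, 0.52 and 0.78 in the p16 WT runners and 0.62, 0.58, 0.53 and 0.55 in the p16 KO runners. Kcnk2 fell by 0.18 (SE 0.07) and Kcnip4, another KChIP, by 0.17 (SE 0.08) on the log2 scale, the latter called in 7 of the 16 fits that left out 1 library. The calls of Kcnj6, Kcnip3, Kcnj2, Kcnk1, Kcna1 and Kcnh6 at the unadjusted threshold held in every alternative setting in which the gene was tested, those without a library included (Kcnh6 lay below the filter at 1 TPM). Kcnq3 and Kcnk2, which were called with all libraries, were not called without the 3 libraries of lowest nuclear RNA (log2 fold changes 0.10 and -0.10) nor without the 3 of lowest Prox1 (0.10 and -0.13).

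**Figure D2:**
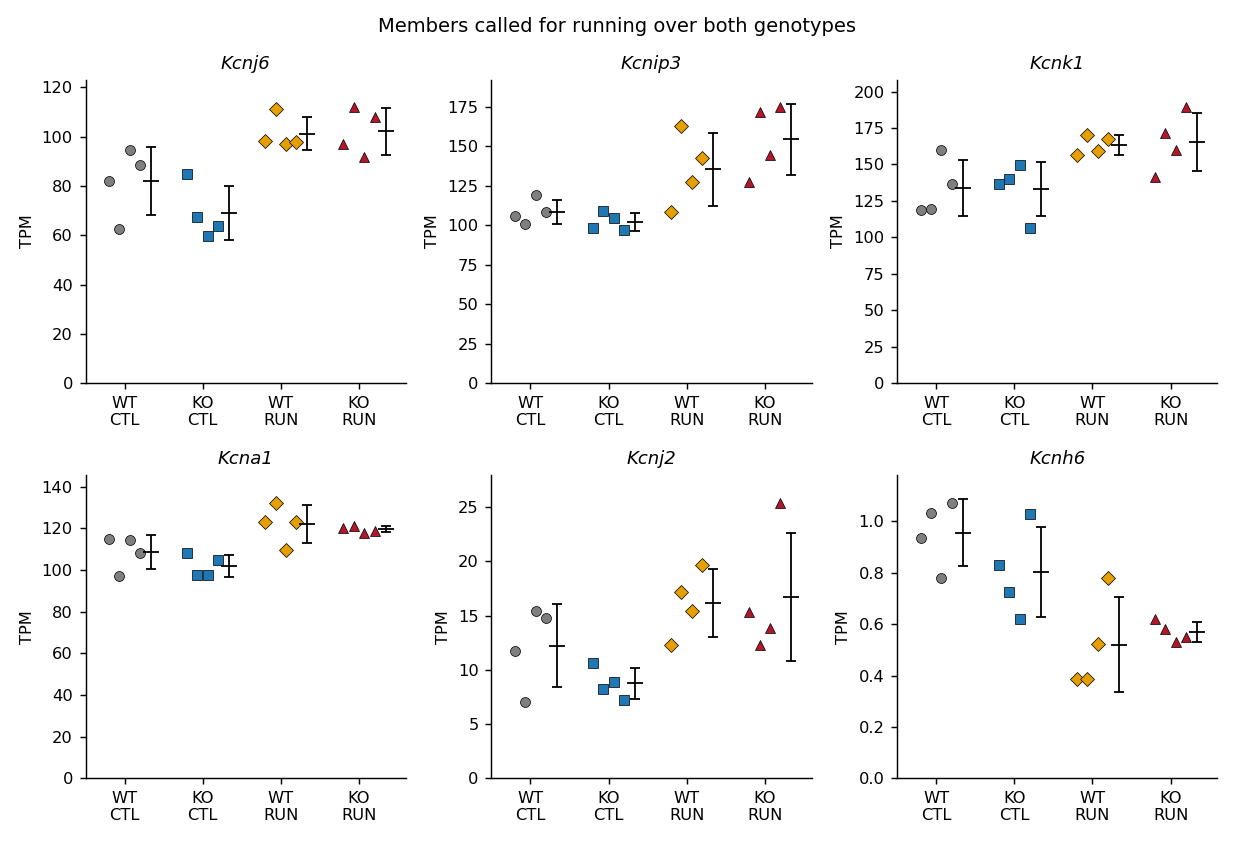
TPM per library (symbols) with mean ± SD of 4 libraries (bar beside them) for 6 members called in the comparison of RUN with CTL over both genotypes; vertical axes start at 0. Kcnj6 in the runners lies between 91.6 and 112 TPM, and all p16 KO RUN libraries of Kcnip3 lie above all sedentary ones, while Kcnh6 is lower in RUN.

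The same question was then asked within each genotype. In Set A, the p16 KO runners against sedentary p16 KO mice, 14 members were called, 11 higher and 3 lower, which is 16.3% of those tested where 18.5% of all genes were called, 10.7% higher and 7.74% lower. In Set C, the p16 WT runners against sedentary p16 WT mice, 5 members were called, 4 higher and 1 lower, which is 5.81% where 4.81% of all genes were called, 2.69% higher and 2.13% lower. No member had an adjusted p under 0.05 in limma in either set, as against 0.0173% of all genes in Set A and none in Set C. Without p16 KO CTL replicate 5, 178 genes and 2 members passed that threshold in Set A. Without the 3 libraries of lowest nuclear RNA, 11 members were called in Set A, 12.8% of those tested against 8.49% of all genes. With the nuclear RNA score as a covariate the shares were 12.8% and 9.97%. The members thus lay above all genes in these fits and below them in the fit given first. They also lay above with TPM as deposited (23.3% against 18.5%) and with quantile normalization (18.6% against 17.8%). Without the 3 of lowest Prox1 the shares were 11.6% and 12.2%. In Set C, 62 of the 86 members (72.1%) had a log2 fold change above 0, against 51.2% of all genes, and 54 did without p16 WT CTL replicate 3. In Set A, 49 members (57.0%) had one, against 53.2% of all genes. With quantile normalization the calls in Set A were 11 higher and 5 lower (8.88% higher and 8.9% lower of all genes), and with TPM as deposited 17 higher and 3 lower (14.4% higher and 4.09% lower), so that all genes tilted with the scaling as well.

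By role, the inward rectifiers had the largest number of calls in Set A, with 3 of 13 tested members higher (Kcnj6, Kcnj2 and Kcnj5) and 1 lower (Kcnj16). They also had the most tested members, and the Kv1 role had 2 higher and 1 lower of 9 tested. Kcnj6 rose by a log2 fold change of 0.51 (SE 0.10, unadjusted p 0.000554) and Kcnj2 by 0.82 (SE 0.21). Kcnj5 rose by 0.91 (SE 0.32), but at 0.208, 0.0894, 0.215 and 0.117 TPM in p16 KO CTL and 0.349, 0.390, 0.283 and 0.564 in p16 KO RUN, where the pseudocount of 0.1 TPM lowers the fold change, and its call held in 6 of the 8 fits that left out 1 library. Kcnj2 and Kcnj16 are neighbours on chromosome 11, 38.2 kb apart on the same strand, and moved in opposite directions in these libraries. Kcnj16 was 27.0, 35.6, 31.0 and 25.8 TPM in p16 KO CTL and 24.5, 22.3, 26.3 and 23.1 in p16 KO RUN, with a log2 fold change of -0.37 (SE 0.12). The groups overlapped in TPM and not after scaling, and the call was lost without the 3 libraries of lowest nuclear RNA (-0.16).

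The Kv4 and the Kv1 roles each had 2 members higher in Set A. Of the 7 tested Kv4 and KChIP members, Kcnip3 rose by 0.52 (SE 0.11, unadjusted p 0.00127) and Kcnd3 by 0.23 (SE 0.08). Of the 9 tested Kv1 members, Kcna1 rose by 0.16 (SE 0.04) and Kcna4 by 0.34 (SE 0.14), and Kcnab2, the member of highest level, was lower, at 576, 609, 714 and 699 TPM in p16 KO CTL and 582, 601, 573 and 517 in p16 KO RUN (log2 fold change -0.25, SE 0.10). These 2 groups overlapped, and the call was lost without any 1 of p16 KO CTL replicate 7, 8, p16 KO RUN replicate 13, 15, 16 (log2 fold change -0.26 to -0.19). It was also lost without the 3 libraries of lowest Prox1 (-0.10), where Kcnab2 stood at 659.8 to 714 TPM against 517 to 673 TPM elsewhere, and without the 3 of lowest nuclear RNA (-0.18). Of the 8 fits that left out 1 library, Kcnd3 was called in 5 and Kcna4 in 3.

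Kcnq3 was 62.3, 54.4, 47.5 and 56.7 TPM in p16 KO CTL and 69.95, 67.3, 63.0 and 64.3 in p16 KO RUN, a log2 fold change of 0.20 (SE 0.07), which was 0.13 and not called without the 3 libraries of lowest nuclear RNA, and 0.14 and not called without those of lowest Prox1. Kcng1 (0.32, SE 0.12) was the only Kv2 or silent subunit called in Set A, and its call was lost without any 1 of p16 KO CTL replicate 7, 8, p16 KO RUN replicate 13, 15, 16 (log2 fold change 0.25 to 0.32), without the 3 libraries of lowest Prox1 (0.12) and without the 3 of lowest nuclear RNA (0.26). None of the 8 Kv10 to Kv12 members and none of the 10 calcium- and sodium-activated members tested was called in Set A at the unadjusted threshold.

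Kcnk2 was the clearest of the lower members in Set A. It was 37.7, 36.6, 38.8 and 34.8 TPM in p16 KO CTL and 28.8, 32.4, 31.2 and 30.8 in p16 KO RUN, without overlap (log2 fold change -0.33, SE 0.07, unadjusted p 0.00137, exact permutation p 0.0286, the smallest that 35 splits of 8 libraries allow). The groups of 10 of the 86 members (11.6%) did not overlap in Set A, where 10.4% of all genes had this. The log2 fold change of Kcnk2 stayed between -0.37 and -0.25 in all alternatives run, and it was called in each.

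In Set C, Kcnk1 (log2 fold change 0.28, SE 0.09, unadjusted p 0.00839), Kcnj6 (0.31, SE 0.10), Kcnab3, the least abundant beta subunit (0.30, SE 0.10), and Kcnip3 (0.29, SE 0.12) were higher, and Kcnh6 was lower (-0.81, SE 0.27). Kcnj6 and Kcnip3 were thus called in both genotypes, and their running responses did not pass the test of a difference between genotypes (interaction log2 0.20, SE 0.15, and 0.22, SE 0.17). Kcnk1 had a similar log2 fold change in Set A, 0.25 (SE 0.13), that was not called. The call of Kcnj6 in Set C was lost without p16 WT RUN replicate 10 (log2 fold change 0.25). That of Kcnab3 was lost without any 1 of p16 WT CTL replicate 3, p16 WT RUN replicate 10, 12 (log2 fold change 0.24 to 0.25), and that of Kcnip3 without any 1 of p16 WT CTL replicate 1, 2, 4, p16 WT RUN replicate 10, 12 (log2 fold change 0.19 to 0.28).

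**Figure D3:**
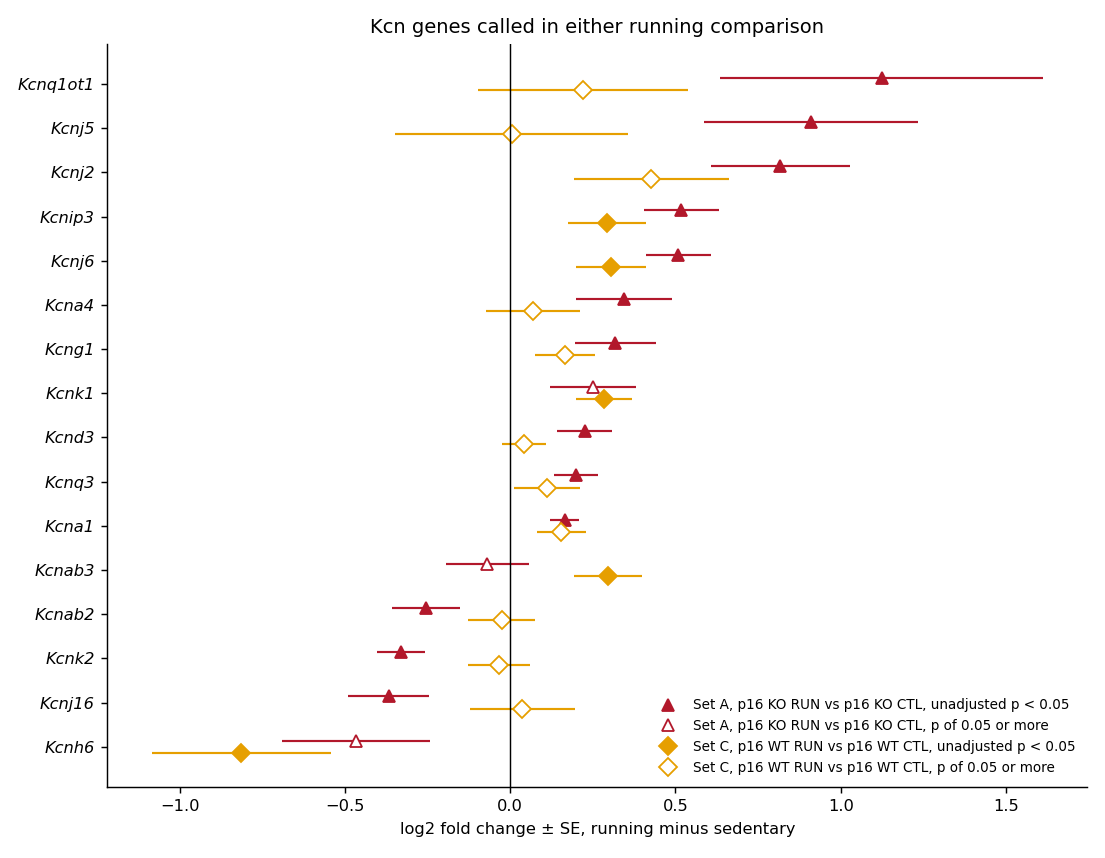
Log2 fold change ± SE of running in p16 KO (Set A, triangles) and p16 WT (Set C, diamonds) for members with an unadjusted p under 0.05 in either set; filled symbols mark such a p. Kcnj6 and Kcnip3 are filled in both sets, and Kcnk2, Kcnj16 and Kcnab2 lie below 0 in Set A and near 0 in Set C.

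Loss of p16 in sedentary mice was asked in Set B, the comparison of p16 KO CTL with p16 WT CTL, which shares the p16 KO CTL libraries with Set A and the p16 WT CTL libraries with Set C. Here 3 members (3.49%) were called, 2 higher and 1 lower, where 6.69% of all genes were, 3.15% higher and 3.54% lower. None of all genes had an adjusted p under 0.05 in limma. With TPM as deposited 1 member was higher and 2 lower (1.94% higher and 4.49% lower of all genes). Kcnf1, a silent subunit of Kv2 channels, was 52.3, 54.1, 39.8 and 45.5 TPM in p16 WT CTL and 31.5, 30.2, 21.3 and 39.8 TPM in p16 KO CTL. It was lower in the knockout by a log2 fold change of -0.60 (SE 0.18, unadjusted p 0.00756), with the lowest wild-type and the highest knockout library at the same level. The fold change was -0.32 and not called without the 3 libraries of lowest nuclear RNA.

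Kcnj16, the Kir partner of Kcnj10 in astrocytes, was 21.0, 28.7, 18.5 and 23.0 TPM in p16 WT CTL against 27.0, 35.6, 31.0 and 25.8 in p16 KO CTL (log2 fold change 0.46, SE 0.17). Kcnk2 was 33.2, 35.8, 34.6 and 31.1 TPM against 37.7, 36.6, 38.8 and 34.8 (0.20, SE 0.08). The groups overlapped for both genes. The call of Kcnj16 was lost without any 1 of p16 WT CTL replicate 1, 3, 4, p16 KO CTL replicate 6, 7 (log2 fold change 0.35 to 0.45). That of Kcnk2 was lost without any 1 of p16 WT CTL replicate 1, 3, 4, p16 KO CTL replicate 5, 6, 7 (log2 fold change 0.15 to 0.21) and without the 3 libraries of lowest nuclear RNA (0.18). The summed astrocyte markers were also highest in p16 KO CTL replicates 6 and 7, where Kcnj16 had its highest levels, at 3321 and 3263 TPM against 2232 to 2855 elsewhere, and their part in the result was not tested.

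In running mice, Set E, the p16 KO against the p16 WT runners, had 2 members called (2.33%), both lower in the knockout, where 3.87% of all genes were called, 2.11% higher and 1.76% lower. Both are silent subunits of the Kv6 type. Kcng2 was 40.9, 38.5, 39.5 and 34.9 TPM in p16 WT RUN and 35.9, 31.1, 33.7 and 33.8 in p16 KO RUN (log2 fold change -0.18, SE 0.06, unadjusted p 0.0130). Kcng3 was 7.82, 6.27, 8.0 and 5.5 TPM in p16 WT RUN and 6.33, 3.44, 5.38 and 4.72 in p16 KO RUN (log2 fold change -0.47, SE 0.19, unadjusted p 0.0337), and this call was lost without any 1 of p16 WT RUN replicate 9, 11, p16 KO RUN replicate 14, 16 (log2 fold change -0.46 to -0.32). In a fit of genotype over sedentary and running libraries together, 4 members (4.65%) were called where 6.94% of all genes were, 3.8% higher and 3.14% lower. Kcng3 (-0.52, SE 0.19, unadjusted p 0.0149), Kcnf1 (-0.46, SE 0.17) and the sodium-activated Kcnt2 (-0.12, SE 0.05) were lower in p16 KO, and Kcnj16 (0.25, SE 0.11) was higher. Kcng3 was called in all 28 settings run for this comparison. Kcnf1 was not called without the 3 libraries of lowest nuclear RNA (-0.32) or of lowest Prox1 (-0.38). The call of Kcnj16 was lost without any 1 of p16 WT CTL replicate 1, 3, 4, p16 KO CTL replicate 6, 7, p16 WT RUN replicate 9, 11, p16 KO RUN replicate 15 (log2 fold change 0.19 to 0.25), and that of Kcnt2 without any 1 of p16 WT CTL replicate 1, 3, p16 KO CTL replicate 5, 7, 8, p16 WT RUN replicate 9, 10, 11, p16 KO RUN replicate 13, 15, 16 (log2 fold change -0.12 to -0.10). Without the 3 libraries of lowest nuclear RNA neither Kcnj16 (0.18) nor Kcnt2 (-0.13) was called, and without those of lowest Prox1 Kcnt2 (-0.12) was not. With TPM as deposited, 1 member was higher and 6 were lower (2.45% higher and 4.46% lower of all genes), and with quantile normalization 2 were higher and 4 lower (4.24% higher and 2.9% lower).

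Whether running acted differently by genotype was tested as an interaction over all 16 libraries. Here 2 members (2.33%) were called, both negative, where 5.48% of all genes were, 2.95% positive and 2.54% negative, with adjusted p of 0.797 in limma for both. Kcnk2 had an interaction of -0.30 (SE 0.12, unadjusted p 0.0258), from a log2 fold change of -0.33 in Set A and -0.03 in Set C. Its levels in p16 WT RUN were spread, at 36.9, 30.0, 36.7 and 29.7 TPM, 2 libraries near the sedentary level and 2 near that of p16 KO RUN. Kcnab3 had an interaction of -0.37 (SE 0.17), from -0.07 in Set A and 0.30 in Set C. It was 15.0, 16.1, 14.4 and 16.3 TPM in sedentary p16 WT mice, 17.8, 14.1, 18.1 and 22.9 in sedentary p16 KO mice, 17.6, 20.7, 17.4 and 21.2 in the p16 WT runners and 18.5, 17.1, 17.9 and 18.1 in the p16 KO runners, so that p16 WT CTL stood lowest and p16 KO CTL varied most. The call of Kcnab3 was lost without the 3 libraries of lowest Prox1 (-0.21) and without any 1 of p16 WT CTL replicate 1, 3, 4, p16 KO CTL replicate 7, 8, p16 WT RUN replicate 10, 12, p16 KO RUN replicate 13, 14, 15, 16 (log2 fold change -0.38 to -0.25), and that of Kcnk2 without any 1 of p16 WT CTL replicate 4, p16 KO CTL replicate 7, p16 WT RUN replicate 9, 11, p16 KO RUN replicate 13 (log2 fold change -0.26 to -0.24).

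**Figure D4:**
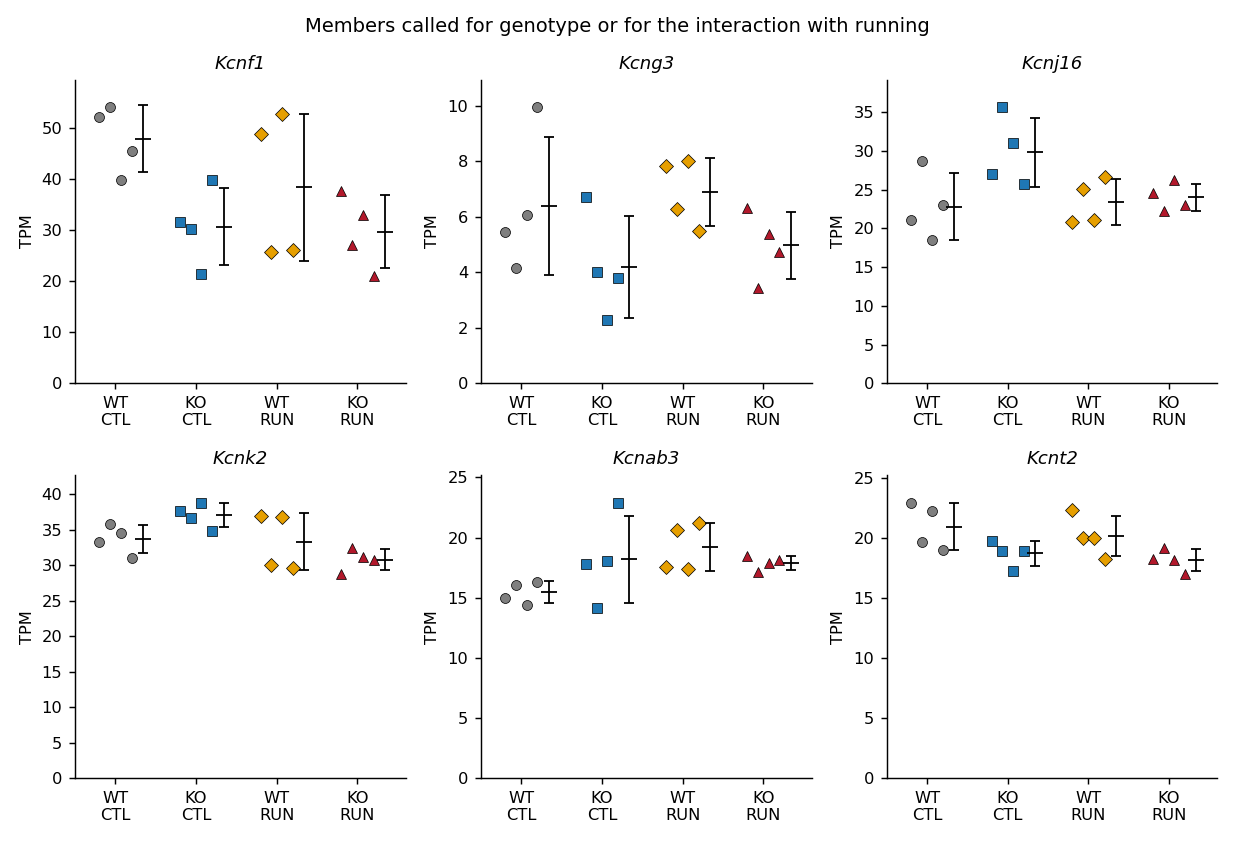
TPM per library (symbols) with mean ± SD of 4 libraries (bar beside them) for 6 members called for genotype or for the interaction; vertical axes start at 0. Kcnf1 is lower in p16 KO CTL than in p16 WT CTL, the p16 WT RUN libraries of Kcnf1 and Kcnk2 fall into 2 high and 2 low ones, and Kcnk2 is lowest in p16 KO RUN.

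Set D, the p16 KO runners against sedentary p16 WT mice, joins both differences and shares all its libraries with the sets above. Of the members, 11 (12.8%) were called, 8 higher and 3 lower, where 8.63% of all genes were, 4.97% higher and 3.66% lower. Kcnip3 (0.49, SE 0.10, unadjusted p 0.000992), Kcnj6 (0.33), Kcnk1 (0.30) and Kcnab3 (0.21) were higher as in Set C, and Kcnf1 (-0.71) was lower as in Set B. Kcnj10, Kcne1l and Kcnh2 were called in this set alone. Kcnj10 was 87.0, 100.5, 98.1 and 81.6 TPM in p16 WT CTL and 105, 139.9, 117 and 118 in p16 KO RUN (log2 fold change 0.38, SE 0.11, unadjusted p 0.00856), and it reached its highest level, 159.7 TPM, in p16 KO CTL replicate 7. Kcne1l, a KCNE subunit, was 4.62, 9.01, 4.02 and 4.92 TPM in p16 WT CTL and 7.82, 12.9, 8.57 and 10.4 in p16 KO RUN (log2 fold change 0.84, SE 0.28, unadjusted p 0.0135), and p16 WT CTL replicate 2 lay within the p16 KO RUN range. The calls of Kcnk1, Kcna1, Kcnt2 and Kcnab3 in Set D were lost without any 1 of p16 WT CTL replicate 1, p16 KO RUN replicate 14, 16 (log2 fold change 0.24 to 0.27), without any 1 of p16 WT CTL replicate 4, p16 KO RUN replicate 13, 14 (log2 fold change 0.12 to 0.14), without any 1 of p16 WT CTL replicate 1, 2, 3, p16 KO RUN replicate 13, 15, 16 (log2 fold change -0.21 to -0.16) and without p16 WT CTL replicate 3 (log2 fold change 0.16), in that order.

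Several of the most abundant members were not called in any of the 8 comparisons. Kcnip2 had a log2 fold change close to 0 (SE 0.05) for running over both genotypes, in contrast to 0.41 for Kcnip3, and Kcnmb4 had -0.13 (SE 0.08). Kcnab1 varied least of the members with at least 1 TPM, with a ratio of 1.21 between its highest and lowest library. For Kcnc1 the log2 fold change was 0.08 (SE 0.04) and for Kcnh3 0.07 (SE 0.07).

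Genes whose products work with these channels were read from the same fits, from a list of 31 of which 30 were tested. In Set A, 8 were higher and 1 was lower, where 10.7% of all genes were higher and 7.74% lower. Without the 3 libraries of lowest nuclear RNA 4 were higher and 2 lower (4.9% and 3.59% of all genes), and without the 3 of lowest Prox1 6 were higher and 0 lower (7.39% and 4.77%). With all libraries, the 1 lower in Set A was Dpp10, a DPP subunit of Kv4 channels. Of the 8 higher, 4 were among the 7 genes listed for clustering of Kv1 and Kv7 channels. Another 1 was a sulfonylurea receptor and 1 was listed with HCN channels. Levels are given for up to 3 genes of smallest p per set. Of the 4 BK channel gamma subunits listed, 3 were tested and 2, Lrrc26 and Lrrc55, were higher, while Lrrc38 was not called (-0.04, SE 0.33). Lrrc26 was 4.74, 2.69, 2.17 and 4.72 TPM in p16 KO CTL and 7.22, 5.65, 7.42 and 8.81 in p16 KO RUN (log2 fold change 1.00, SE 0.25, unadjusted p 0.00285). Its 3 lowest levels among all 16 libraries were in the 3 libraries of lowest nuclear RNA, the third of which is p16 WT CTL replicate 2 at 3.22 TPM. Without these 3 libraries the Set A difference was 0.57, still called. Lrrc55 was 11.0, 9.35, 11.1 and 11.6 TPM in p16 KO CTL and 14.8, 31.3, 16.5 and 20.8 in p16 KO RUN (0.83, SE 0.22), and was also called in Set C (0.53, SE 0.20), though not without p16 WT CTL replicate 4 (0.35), p16 WT RUN replicate 10 (0.41) or p16 WT RUN replicate 12 (0.46). The BK pore Kcnma1 itself had log2 fold changes of 0.11 (SE 0.08) and 0.12 (SE 0.09) in the 2 sets and was called in neither.

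Lgi1, a secreted protein that acts on Kv1 channels at the synapse, was 182, 172, 161 and 148 TPM in p16 KO CTL and 195, 212, 199.6 and 223 in p16 KO RUN (0.26, SE 0.07), without overlap, and its interaction was called as well (0.24, SE 0.09). The interaction was not called without p16 WT CTL replicate 1 (0.21), p16 KO CTL replicate 8 (0.18) or p16 KO RUN replicate 16 (0.21). The 3 lowest Lgi1 levels among the 16 libraries were in the 3 of lowest Prox1, and without these the log2 fold changes were 0.18 in Set A and 0.20 in the interaction, both still called. In Set C, 3 of the 30 were called, all higher, where 4.81% of all genes were called and 2.69% were higher. Amigo1, an auxiliary subunit of Kv2 channels, was 62.4, 53.0, 67.7 and 61.6 TPM in p16 WT CTL and 79.8, 70.4, 75.1 and 74.4 in p16 WT RUN (log2 fold change 0.28, SE 0.06, unadjusted p 0.00156), again without overlap. Slc12a2, a cotransporter that brings chloride with potassium and sodium into the cell, was higher in Set C (0.22, SE 0.07) and lower in Set E (-0.15, SE 0.07), 2 sets that share the p16 WT RUN libraries. The Set E call was lost in 6 of the 8 fits without 1 library. In Set B none of the 30 was called in limma at the unadjusted threshold with all libraries, where 3.15% of all genes were higher and 3.54% lower. Without the 3 libraries of lowest nuclear RNA, 2 were higher and 2 lower (3.19% and 3.48% of all genes). Without the 3 of lowest Prox1, 1 was higher and 1 lower (3.72% and 5.53%). Leaving out p16 WT CTL replicate 2 alone gave 1 higher and 5 lower (7.6% and 9.89% of all genes). Leaving out p16 KO CTL replicate 5 alone gave 0 higher and 4 lower (5.26% and 8.21%). Lrrc26 was among the lower ones without either set of 3 libraries (-0.49 and -0.86).

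Some members moved with RNAs of the nucleus or the choroid plexus in single libraries, whose part in the results was not tested. Kcnq1ot1, the nuclear RNA among the members, was 3.01, 1.37, 4.45 and 4.34 TPM in sedentary p16 WT mice, 3.41, 0.918, 0.510 and 2.75 in sedentary p16 KO mice, 3.15, 3.35, 3.69 and 4.02 in the p16 WT runners and 3.56, 3.11, 3.48 and 3.82 in the p16 KO runners. It lay at 0.510 to 1.37 TPM in the 3 libraries of lowest nuclear RNA and at 2.75 to 4.45 TPM in the other 13. It was called in Set A (log2 fold change 1.12, SE 0.49, unadjusted p 0.0466), the log2 fold change was 0.16 and not called without those libraries, 0.89 and not called without the 3 of lowest Prox1, and the call was also lost without any 1 of p16 KO CTL replicate 6, 7, p16 KO RUN replicate 13, 14, 15, 16 (log2 fold change 0.68 to 1.17).

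Kcnj13, a Kir channel of the choroid plexus epithelium, was 0.624, 0.263, 1.45 and 0.135 TPM in p16 KO CTL and at most 0.716 TPM outside replicate 7 of that group. Ttr, the main transcript of that epithelium, was 191 TPM in the same library and 1.82 to 42.6 TPM in the other 15, and Kcne2, a KCNE subunit of the choroid plexus, was highest there too (1.14 TPM against at most 0.653). The summed level of the 8 choroid plexus markers was 217 TPM in that library and 18.9 to 65.1 TPM in the others. Neither Kcnj13 nor Kcne2 was called in any set.

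**Figure D5:**
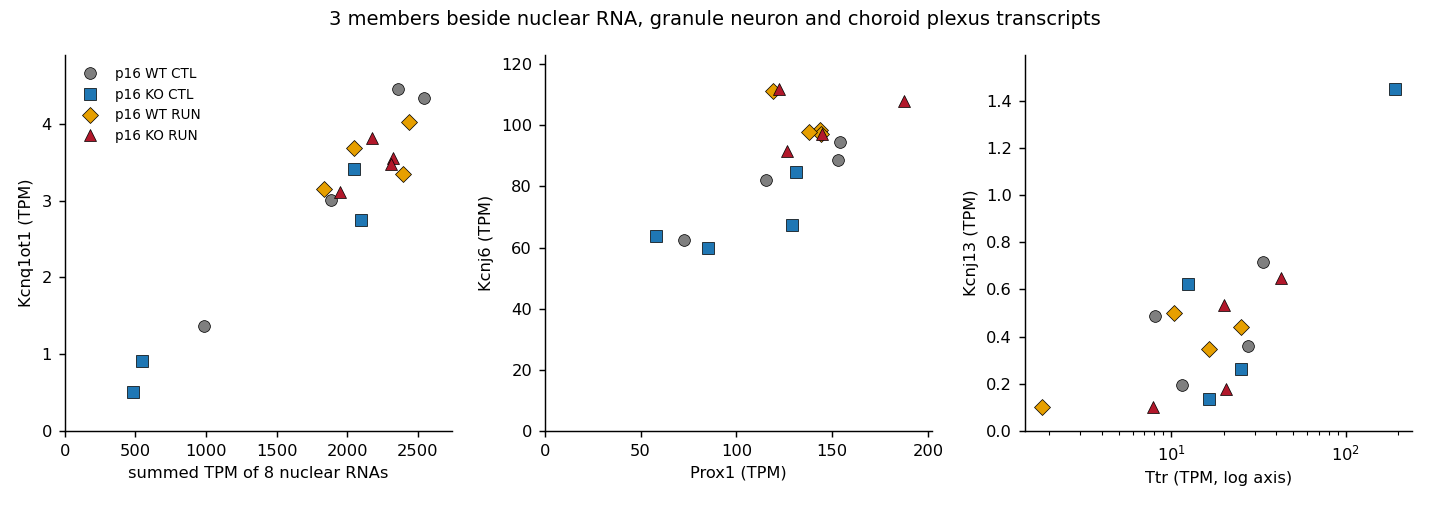
Each point is 1 library, coloured by group. Left, Kcnq1ot1 against the summed TPM of 8 nuclear RNAs; middle, Kcnj6 against Prox1; right, Kcnj13 against Ttr on a log axis. In each panel 1 to 3 sedentary libraries stand apart from the remainder, with Kcnq1ot1 at 0.510 to 1.37 TPM in 3 libraries and Kcnj13 at 1.45 TPM in p16 KO CTL replicate 7.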

How the data were processed

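RNA of pooled dentate gyri was sequenced in 16 libraries. Per the paper's methods and the submitters' processing notes, the authors removed adapters with cutadapt 1.11, trimmed bases with ERNE, aligned them with STAR to mm10 and ran StringTie. The deposited tables give TPM, FPKM and coverage per gene entry. StringTie's annotation release and strand setting are not given in the sources used here. The methods give the read number only as an average over the samples. Depth per library was therefore compared through the deposited coverage, whose median per library was 0.621 to 1.95 times the typical library. It was 0.621 to 0.893 in the running libraries and 0.9 to 1.95 in the sedentary ones, without overlap. Depth can thus not be told apart from running in Sets A, C and D and in the fit over both genotypes, and its part was not tested. TPM corrects for length and depth, so a large change in a few abundant genes moves all other values.

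TPM was summed per gene name. Levels printed are as deposited. For tests, libraries were scaled by their median ratio to the average library, taken over 13226 genes that reached 1 TPM everywhere, 0.1 was added, and log2 values of the 17317 genes whose mean reached 0.1 TPM were fitted in limma 3.58.1 with a variance trend (R 4.3.3), after a test on simulated data. Fold changes are on the log2(TPM + 0.1) scale, which understates low genes. Calls use an unadjusted p under 0.05, the study's threshold, or a Benjamini-Hochberg adjusted p under 0.05 over all genes. Permutation tests were exact and two-sided. Samples of a group are separate pools of mice. Sets A and B share p16 KO CTL, Sets B, C and D share p16 WT CTL, Sets A, D and E share p16 KO RUN, and Sets C and E share p16 WT RUN. The members and gene lists were chosen with earlier results of these data known. Named were the 12 members of highest mean TPM, the highest of each role, up to 8 called members of smallest p per comparison and 4 members of glia, choroid plexus and nucleus, and further called members were named after their values were seen. The values of 3 members are not reported here, though they stay in all counts and sums. Alternatives changed the filter, the pseudocount, the scaling, the unit, the variance trend and the libraries.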

Additional observations from a re-analysis of the deposited data

Results flagged for a closer look

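In 116 groups of 4 libraries of the named members, 1 library was checked for standing apart from the other 3, and 4 did, where chance gives 5.8 at 1 in 20, and 3 of these are given here. Kcnab1 was 122.34 TPM in p16 KO CTL replicate 8 and 106.43 to 108.63 TPM in the other 3. Kcnj6 was 111.24 TPM in p16 WT RUN replicate 10 and 97.257 to 98.405 TPM in the others. Kcnq3 was 56.806 TPM in p16 WT RUN replicate 12 and 69.891 to 70.809 TPM in the others.

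The effect of running differed between the genotypes at the unadjusted threshold for 2 members. The interaction was -0.36593 on the log2 scale for Kcnab3 and -0.29556 for Kcnk2, and neither passed after adjustment in limma.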

How the results depend on the processing

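No paired analysis was possible because the groups share no replicate numbers. Of 48 named fold changes, 20 stayed called in every setting and 0 reversed. With the nuclear RNA score as a covariate 14 of the 48 were not called, and with no variance trend 8 were not. The lost calls listed for single members above are those lost by leaving out libraries, so other settings ended further calls. The alternatives that left out the 3 libraries of lowest nuclear RNA or of lowest Prox1 were chosen after seeing the data. The cause was not tested for the changes below.

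Set B, with 3 members called, gave 1 with the nuclear RNA score as covariate (4.5% of all genes, against 6.69%), 5 with all 16 libraries in one fit (5.81% of members, 12.7% of all genes), and 6 (6.98%) without the 3 libraries of lowest nuclear RNA and also of lowest Prox1 (6.68% and 9.26% of all genes). Leaving out 1 library gave 1 to 10. It gave 1 without p16 WT CTL replicate 1, 3 or 4 (3.51%, 4.11% and 4.22% of all genes) and 2 without p16 KO CTL replicate 7 (3.22%). The count was 10 without p16 WT CTL replicate 2 (11.6% of members, 17.5% of all genes). It was 7 without p16 KO CTL replicate 5 (8.14% of members, 13.5% of all genes). Set C, with 5, gave 3 to 8, with 3 without p16 WT RUN replicate 10 or 12 (3.07% and 4.17% of all genes) and 8 without p16 WT RUN replicate 11 (5.67%, against 9.3% of the members). Set E, with 2, gave 4 with the nuclear covariate (4.54% of all genes, against 3.87%), 3 with no filter on low values or no variance trend (4.48% and 4.05%), 0 in one fit (limma, 3%), and 1 to 4 without 1 library (2.81% to 6.05%), with 1 without p16 WT RUN replicate 9 or 11 and 4 without p16 WT RUN replicate 12. Without 1 library, Set A gave 10 to 20 while 11.7% to 27.4% of all genes were called, and Set D 9 to 14 while 6.53% to 11.2% were.

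The interaction, with 2 members, gave 4 with no filter, 4 with no variance trend, 1 with TPM as deposited, 1 with the nuclear covariate and 3 with quantile normalization, while 5.23%, 5.23%, 5.28%, 4.2% and 5.5% of all genes were called, against 5.48%. It gave 4 (4.65%) without the 3 libraries of lowest nuclear RNA and 6 (6.98%) without those of lowest Prox1, both below the shares of all genes (7.25% and 10.1%). Without 1 library it gave 0 to 8, with 0 without p16 KO RUN replicate 13 (limma, 4.75% of all genes). It gave 8 without p16 WT CTL replicate 2 (9.3% of members, 13.7% of all genes) and 7 without p16 KO CTL replicate 5 (8.14% and 11.4%). Running in both genotypes, with 14, gave 10 to 22 without 1 library while 13.1% to 21% of all genes were called. The 22 came without p16 WT CTL replicate 3 (25.6% of members, 21% of all genes). Its adjusted count of 2, where 138 of all genes passed, was 1 with no filter (114 genes), 4 with quantile normalization (160) and 3 with TPM as deposited (174). It was 0 with the nuclear covariate (6 genes) and 0 without either set of 3 libraries (0 genes). Without 1 library it was 0 to 3 while 37 to 244 genes passed. Genotype over both, with 4, gave 7 with TPM as deposited (6.91% of all genes, against 6.94%) and 2 without the 3 libraries of lowest nuclear RNA (5.09%). It gave 2 to 7 without 1 library (4.04% to 10.7%), with 7 without p16 WT CTL replicate 2 (8.14% of members, 10.7% of all genes).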

Other observations

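Within p16 WT RUN, replicates 10 and 12 differed from replicates 9 and 11 in several members, a pattern noticed after the values were seen and not tested. Kcnf1 was 25.8 and 26.1 TPM in replicates 10 and 12 and 48.9 and 52.8 TPM in replicates 9 and 11. Kcnip3 was 163 and 142 TPM against 109 and 127 TPM. Some of the marker sums split these libraries in the same way, while others, such as the astrocyte and pyramidal neuron sums, did not. The dentate granule neuron sum was 908 and 1042 TPM in replicates 10 and 12 against 1254 and 1337 TPM in replicates 9 and 11, and the oligodendrocyte sum 1860 and 1509 TPM against 1358 and 1285 TPM. In the same order, the nuclear RNA sum was 2392 and 2437 TPM against 1838 and 2048 TPM. Their part in the pattern was not tested. In p16 KO RUN, replicates 14 and 16 had Kcnf1 at 27.2 and 21.1 TPM and Kcnip3 at 172 and 175 TPM, while replicates 13 and 15 had Kcnf1 at 37.7 and 32.9 TPM and Kcnip3 at 127 and 144 TPM. The granule neuron sum did not split p16 KO RUN in that way, at 1023 and 1497 TPM in replicates 14 and 16 and 1087 and 1011 TPM in replicates 13 and 15.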
